A study of Gallus gallus with 2 samples.

Results

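The genes described here encode cytokines, chemokines, their receptors, and the JAK and SOCS proteins that act inside the cell below these receptors. They were chosen by symbol alone, as the genes whose symbol begins with IL, CCR, CXCR, CSF, SOCS or JAK followed by a digit, or with CCL, CXCL, TNFSF, TNFRSF, IFNGR or IFNAR. This gave 62 of the 15073 genes listed for both libraries, with 16 ligands, 37 receptors and 9 SOCS and JAK genes. The study fed Xichuan black-bone chickens from the first day of life for 12 weeks, and breast muscle was taken after fasting. Test group IV received the basal diet with 0.8% added tyrosine, and the control group received the basal diet alone. Each group is represented by 1 library made from the pooled RNA of 3 birds, so that there are no replicates, no test between the diets was possible, and every difference below compares these 2 libraries. The sex of the birds is not given in the sources used here.

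Cytokines are small signal proteins that bind receptors on nearby cells, and chemokines are the cytokines that direct the movement of leukocytes. Most interleukin and interferon receptors have no enzyme activity of their own and signal through JAK kinases, which phosphorylate STAT transcription factors. Several SOCS proteins are induced by this signal and damp it. Many receptors of the TNF family signal through TRAF adaptors and NF-kB instead. In skeletal muscle, fibres, satellite cells, resident macrophages, vessels and fibroblasts all express parts of this system, and a bulk library sums over all of them, so that more cells of a type and more RNA per cell cannot be told apart.

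The depth was 14318101 counted fragments in test group IV and 13135159 in the control group. Expression is given as FPKM, the fragment count divided by transcript length and depth, which allows levels to be compared between genes. FPKM ratios are those of test group IV over the control group, and each log2 ratio is given with an exact 95% Clopper-Pearson interval from the 2 fragment counts or with where that interval lies. The interval covers counting error only and not the variation between birds or library preparations. It was computed at the depth behind FPKM, without median ratio or TMM scaling. A gene was called when it differed at least 2-fold on the scale of log2(FPKM + 0.1), which holds back the ratios of low genes. Calls were limited to genes whose mean FPKM over the libraries reached 0.1. No listed gene is without a fragment in the control group, a restriction that favours calls of lower expression in test group IV among low genes, and genes detected in test group IV alone were not analysed here. The fast muscle gene TNNT3 stood at 9424 FPKM in test group IV and 9943 FPKM in the control group. TNNI2, another, stood at 8638 FPKM in test group IV and 8007 FPKM in the control group. These fast muscle genes were thus among the abundant transcripts of both libraries. Of 11 muscle fibre markers 8 were found, and ACTA1, CKM and MYLPF were not found by symbol. Of the rest, TNNC2, MYL1 and DES were also abundant, whereas TPM2, MB and PVALB were much lower. PVALB had 5 fragments in test group IV and 1 in the control group. The title of the series speaks of skin, but the labels of both libraries name breast muscle.

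Most members were low genes. Their median of the mean FPKM was 1.46, against 3.46 over all listed genes, and 40 of 62 lay below that median of all genes. Together they took 0.0838% of the fragments of test group IV and 0.0876% of those of the control group. The mean FPKM reached 0.1 in 59 members, namely all 16 ligands, 34 of 37 receptors and all 9 SOCS and JAK genes. CCR10, IL17REL and IL5RA did not reach it, with 2, 0 and 0 fragments in test group IV and 1 fragment each in the control group. Both libraries are there at or under the floor of 3 fragments, so no fold change is given for these 3 receptors. CCLi8, CXCR1, IL21R and TNFSF6 passed although 1 library was under 0.1, and a difference between the libraries is in part built into their passing. Fewer than 20 fragments were counted in both libraries together for 13 of the 59, of which 9 are ligands.

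**Figure D1:**
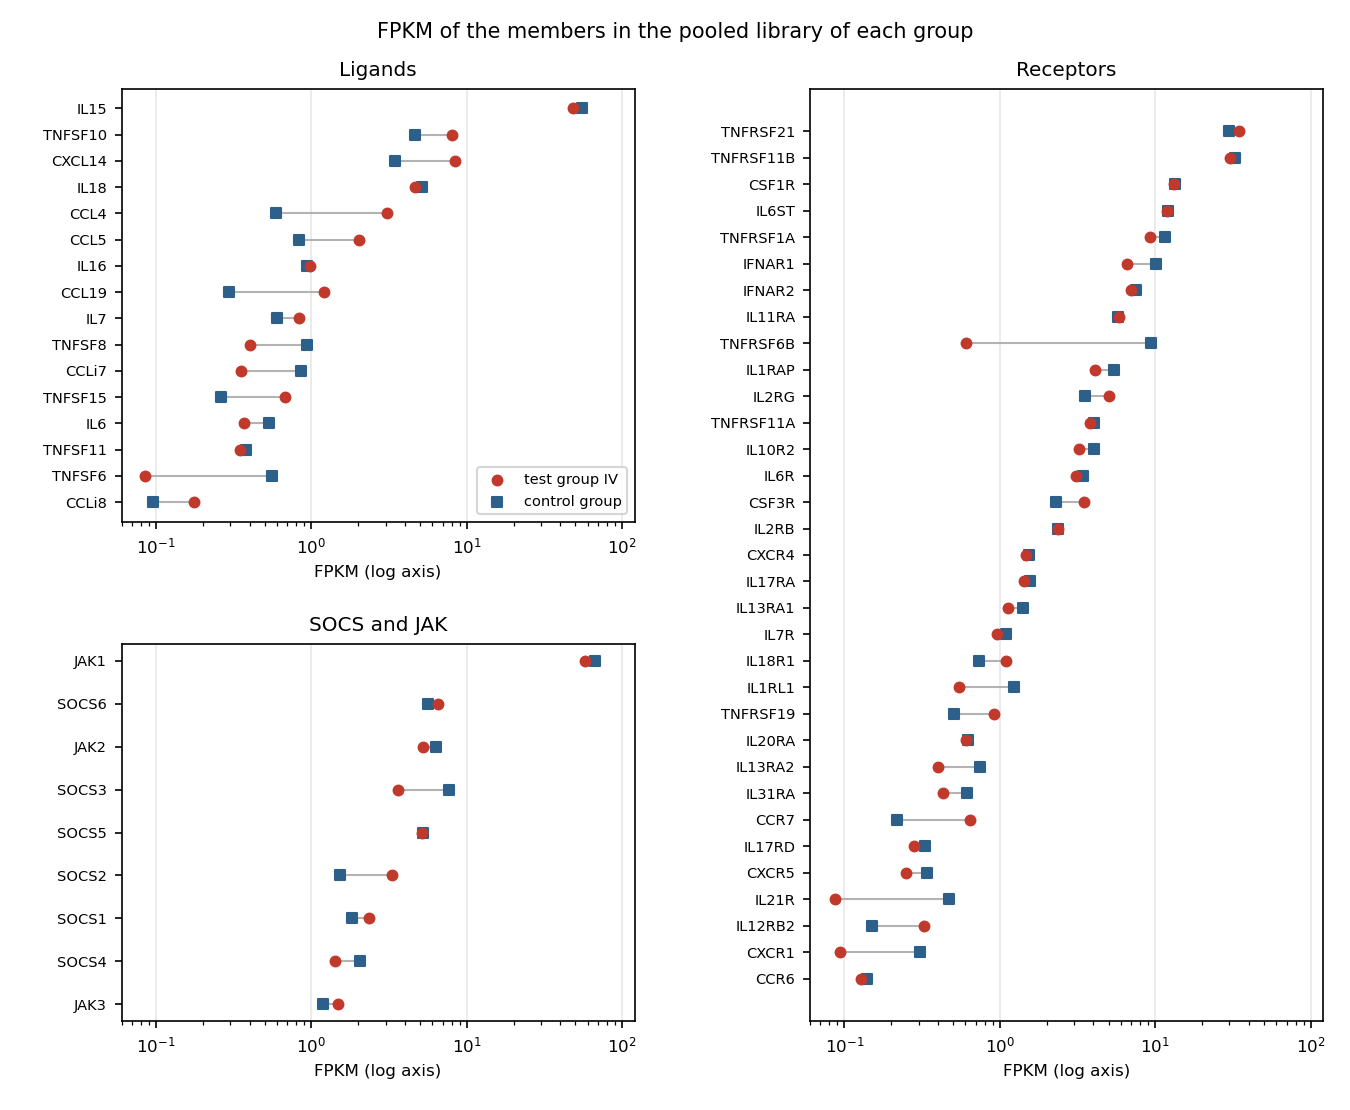
FPKM (log axis) of 58 of the 59 members that reached a mean of 0.1, with test group IV as red circles and the control group as blue squares, joined by a grey line, 1 pooled library each. Most pairs lie close together, whereas TNFRSF6B (0.605 FPKM in test group IV, 9.37 FPKM in the control group), TNFSF6, IL21R, CCL4 and CCL19 are far apart.

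Of the 59 members, 7 were called higher and 8 lower in test group IV. Among all 14094 genes that reached a mean of 0.1 FPKM, 3.85% were called higher and 5.36% lower. These shares depend on the level, so the members are read against genes of their own range. Between 0.1 and 1 FPKM, 8.99% of all genes were called higher and 14.3% lower, and of the 23 members in this range 3 were higher and 6 lower. Between 1 and 10 FPKM the shares of all genes were 3.14% and 2.82%, and of 29 members 4 were higher and 2 lower. At 10 FPKM or more, where 0.691% and 1.88% of all genes were called, none of the 7 members was. Of all 59 members, 20 had a counting interval that left out no change, against 36.5% of all genes tested. These 20 were 9 members wholly above 0 and 11 wholly below, and over all genes 3313 of 14094 were wholly above 0 and 1838 wholly below. This also depends on the level. Between 0.1 and 1 FPKM, 2 of 23 members were wholly above 0 and 2 wholly below (all genes 238 and 206 of 3470). Between 1 and 10 FPKM these were 6 and 6 of 29 (all genes 1321 and 833 of 6429). At 10 FPKM or more they were 1 and 3 of 7 (all genes 1754 and 799 of 4195). Of the 15 called members, 9 also had a counting interval wholly on 1 side of no change. Over all genes tested, 725 called genes had such an interval and 574 did not. The median log2 fold change was -0.08 over the members and 0.07 over all genes tested.

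**Figure D2:**
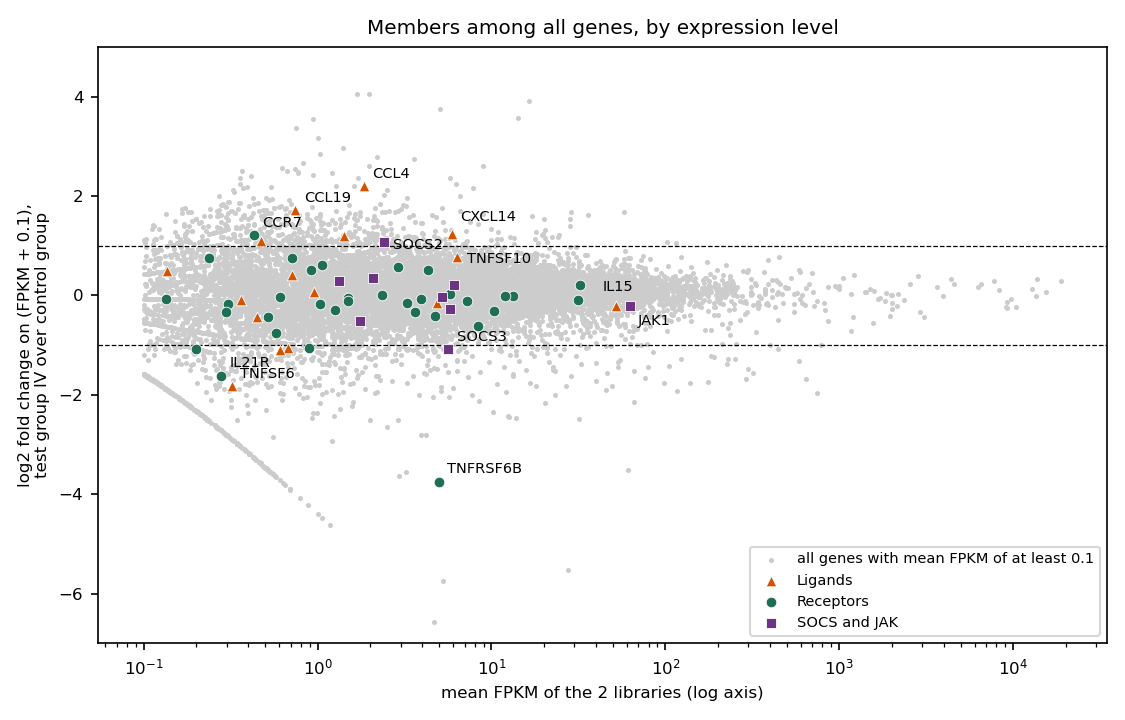
Log2 fold change on the (FPKM + 0.1) scale, test group IV over the control group, against the mean FPKM (log axis) for all 14094 genes tested (grey) and the 59 members (triangles for ligands, circles for receptors, squares for SOCS and JAK). Dashed lines mark a 2-fold difference. The scatter of all genes widens toward low FPKM, where most called members lie, and TNFRSF6B is the member farthest from 0, at -3.75.

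The ligands with the highest levels were IL15, TNFSF10, CXCL14, IL18 and CCL4. IL15, a cytokine that skeletal muscle is known to produce and that maintains T cells and natural killer cells, was the most abundant ligand, with 48.1 FPKM (570 fragments) in test group IV and 55.4 FPKM (602 fragments) in the control group. Its log2 FPKM ratio was -0.20 (95% interval from -0.37 to -0.04), a small difference, and its level exceeded that of 94.1% of the listed genes. IL18, a cytokine of the IL-1 family that is released after inflammasome activation, had 4.61 FPKM in test group IV and 5.13 FPKM in the control group, and its interval, from -0.76 to 0.45, included no change. The other interleukins were low. IL16, an attractant of CD4-bearing cells in mammals, had 84 fragments in test group IV and 73 in the control group. IL7 had 9 fragments in test group IV and 6 in the control group, and the inflammatory cytokine IL6 had 6 in test group IV and 8 in the control group. None of the 5 interleukin ligands was called.

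Of the 16 ligands, 5 were called higher and 3 lower in test group IV. Between 0.1 and 1 FPKM, 2 of 10 ligands were called higher and 3 lower, where the shares of all genes were 8.99% higher and 14.3% lower. Between 1 and 10 FPKM, 3 of 5 ligands were called higher and none lower, where the shares of all genes were 3.14% higher and 2.82% lower. Their log2 fold changes ran from -1.83 to 2.20 with a median of 0.24. CXCL14, a chemokine made by epithelia and other resident tissue cells, had 8.38 FPKM (184 fragments) in test group IV, against 3.47 FPKM (70 fragments) in the control group. Its ratio was 2.41-fold (log2 1.27, 95% interval from 0.87 to 1.69), and this is the called ligand with the most fragments. Among the 6429 genes of its range, 100 were further out on the higher side. TNFSF10 (TRAIL), which triggers cell death through death receptors in mammals, was also higher but below the 2-fold line, with 8.02 FPKM (498 fragments) in test group IV and 4.64 FPKM (264 fragments) in the control group, a log2 ratio of 0.79 (95% interval from 0.57 to 1.01).

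Of the 5 CC chemokines, 3 were called higher and 1 lower, all on small counts. CCL19, CCLi7 and CCLi8 lie between 0.1 and 1 FPKM, where 8.99% of all genes were called higher and 14.3% lower. CCL4 and CCL5 lie between 1 and 10 FPKM, where these shares were 3.14% and 2.82%. CCL4 had 17 fragments (3.08 FPKM) in test group IV and 3 fragments (0.593 FPKM) in the control group, a log2 ratio of 2.38 with an interval from 0.59 to 4.79. CCL5, which lies 12017 bases from CCL4 on chromosome 19 and, like CCL4, attracts T cells and monocytes in mammals, had 8 fragments in test group IV and 3 in the control group, and its interval, from -0.77 to 3.84, included no change. Of these neighbours, CCL4 was the one whose interval left out no change. The 3 fragments of CCL4 in the control group, like those of CCL5, are at the floor. CCLi7, a CC chemokine of the chicken, went the other way, with 4 fragments in test group IV and 9 in the control group, an interval from -3.45 to 0.55. CCLi8 had 2 fragments in test group IV and 1 in the control group. CCLi7 and CCLi8 are adjacent genes 6415 bases apart on chromosome 19 of Galgal5, with no listed gene between them, and reads shared between such neighbouring copies were not separated here.

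CCL19 and its receptor CCR7, which together guide lymphocytes and dendritic cells into lymphoid tissue, were both called higher in test group IV. CCL19, on chromosome Z of Galgal5 from 8363765 to 8366761, had 31 fragments (1.20 FPKM) in test group IV and 7 fragments (0.294 FPKM) in the control group. Its log2 ratio was 2.02 (95% interval from 0.81 to 3.45). CCR7, on chromosome 27 from 4891171 to 4899901, had 32 fragments (0.639 FPKM) in test group IV and 10 fragments (0.218 FPKM) in the control group, a log2 ratio of 1.55 (95% interval from 0.49 to 2.74). CCR7 was the only receptor called higher, and both genes stayed below 2 FPKM in either library. Both have a mean between 0.1 and 1 FPKM, where 8.99% of all genes were called higher and 14.3% lower. With 1 added to each FPKM neither was called, at log2 fold changes of 0.76 for CCL19 and 0.43 for CCR7. For CCR7 this was fixed in advance, because a gene under 1 FPKM in both libraries cannot reach 2-fold with 1 added. The scavenger receptor ACKR4, which takes up CCL19 in mammals and was not a member, had 39 fragments in test group IV and 37 in the control group.

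Of the TNF family ligands, TNFSF15 was called higher and TNFSF6 and TNFSF8 lower, all on few fragments. All 3 lie between 0.1 and 1 FPKM, where 8.99% of all genes were called higher and 14.3% lower. TNFSF15 (TL1A), which costimulates T cells in mammals, had 14 fragments in test group IV and 5 in the control group (interval from -0.19 to 3.19). TNFSF8, the ligand of CD30, lies 32807 bases from TNFSF15 on chromosome 17 and had 6 fragments in test group IV and 13 in the control group (interval from -2.92 to 0.26). TNFSF6, the Fas ligand, had 1 fragment in test group IV and 6 in the control group (interval from -8.23 to 0.33). All 3 intervals included no change, so that at this depth none of them could be told from counting error. TNFSF11 (RANKL) had 6 fragments in each library.

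**Figure D3:**
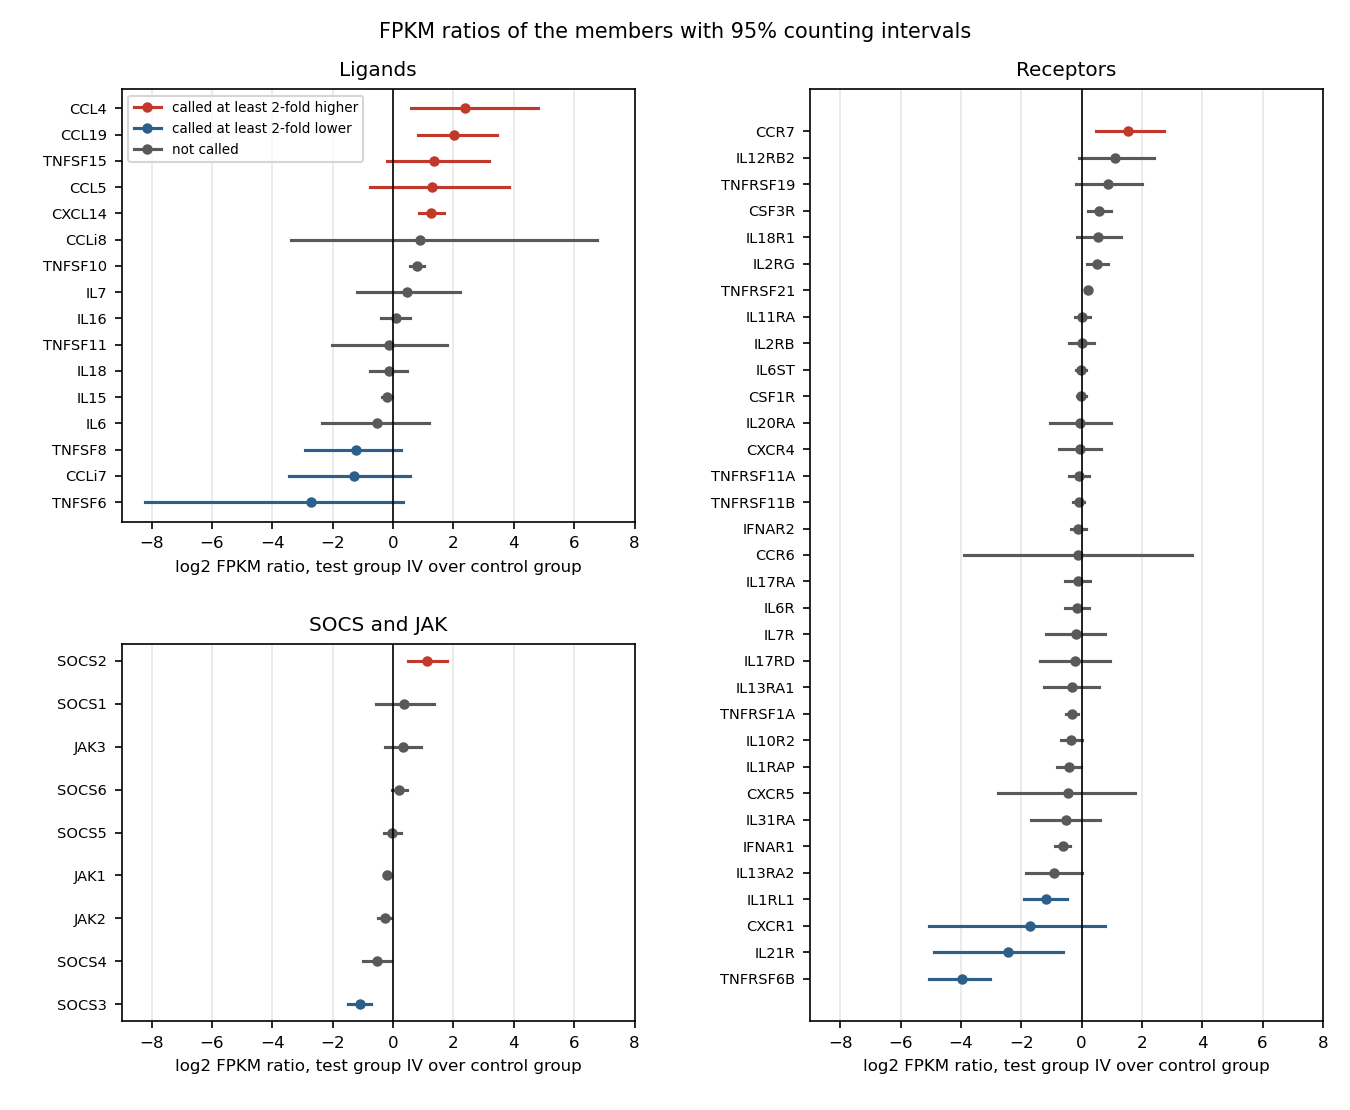
Log2 FPKM ratio of 58 of the 59 members, test group IV over the control group, with the 95% counting interval as a line, ordered by ratio within ligands, receptors and SOCS and JAK (red, called higher; blue, called lower; grey, not called). Intervals are narrow for abundant receptors and wide for low ligands such as TNFSF6, and of the called ligands CCL4, CCL19 and CXCL14 have intervals wholly above 0.

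Of the 34 receptors tested, 1 was called higher and 4 were called lower. Of these 34 receptors, 25 had a log2 fold change below 0 (median -0.10), against 6035 of all 14094 genes tested. Of 13 receptors between 0.1 and 1 FPKM, 1 was called higher and 3 lower (all genes 8.99% higher, 14.3% lower), and of 16 between 1 and 10 FPKM, none was called higher and 1 lower (all genes 3.14% higher, 2.82% lower). The largest difference of all members was that of TNFRSF6B. In human, this gene encodes decoy receptor 3, a soluble receptor that binds Fas ligand and TL1A and keeps them from their signalling receptors. TNFRSF6B lies on chromosome 20 of Galgal5 from 9851270 to 9855152 and overlaps no other listed gene. It had 10 fragments (0.605 FPKM) in test group IV, against 142 fragments (9.37 FPKM) in the control group. The ratio was 0.0646 (log2 -3.95, 95% interval from -5.04 to -3.03), and only 5 of the 6429 genes between 1 and 10 FPKM were further out on the lower side. Fas ligand and TL1A, which it binds by the human pattern, were low in both libraries. TNFSF6 was at 0.0848 FPKM in test group IV and 0.555 FPKM in the control group, and TNFSF15 was at 0.676 FPKM in test group IV and 0.263 FPKM in the control group. Fas, the signalling receptor of Fas ligand, had 75 fragments in test group IV and 90 in the control group (interval of the log2 ratio from -0.85 to 0.07).

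Of the other 5 TNF receptors, TNFRSF21, TNFRSF11B and TNFRSF1A were among the 5 most abundant receptors, and none of the 5 was called. TNFRSF21 (death receptor 6) had 34.5 FPKM (1674 fragments) in test group IV and 29.7 FPKM (1322 fragments) in the control group, a log2 ratio of 0.22 (95% interval from 0.11 to 0.32). TNFRSF11B (osteoprotegerin), a soluble decoy for RANKL, had 30.4 FPKM in test group IV and 32.5 FPKM in the control group, and its signalling counterpart TNFRSF11A (RANK) had 3.82 FPKM in test group IV and 4.03 FPKM in the control group. The intervals of both included no change. Of the 2 soluble decoys in this family, TNFRSF6B was called and TNFRSF11B was not. The interval of TNFRSF11B ran from -0.27 to 0.08. Median ratio or TMM scaling lowers it by 0.09, which puts it just below 0. TNFRSF1A, a receptor for TNF in mammals, had 9.20 FPKM (357 fragments) in test group IV and 11.5 FPKM (408 fragments) in the control group (log2 ratio -0.32, interval from -0.53 to -0.11). TNFRSF19 had 24 fragments in test group IV and 12 in the control group, with an interval from -0.18 to 2.01.

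Of the 18 interleukin receptors tested, none was called higher and 2 were called lower, IL21R and IL1RL1. Both lie between 0.1 and 1 FPKM, where 8.99% of all genes were called higher and 14.3% lower. IL21R, the private chain of the receptor for the T cell cytokine IL-21, had 3 fragments (0.0863 FPKM) in test group IV, against 15 fragments (0.471 FPKM) in the control group. Its log2 ratio was -2.45 (95% interval from -4.88 to -0.62). The 3 fragments in test group IV are at the floor. IL21R passed the minimum through the control group, so that a difference is in part built into its passing. The common gamma chain IL2RG, with which IL21R, IL7R and IL2RB form receptors, was higher instead, with 187 fragments (5.07 FPKM) in test group IV and 120 fragments (3.55 FPKM) in the control group (log2 ratio 0.52, interval from 0.18 to 0.86). The intervals of IL21R and IL2RG lay on opposite sides of no change, but that of IL21R carries the limit given above. IL2RB had 109 fragments in test group IV and 100 in the control group, equal at 2.35 FPKM, and IL7R had 19 fragments in test group IV and 20 in the control group. IL2RB and IL2RG also carry the signal of IL15.

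IL1RL1 and IL18R1 are neighbours on chromosome 1, 5752 bases apart, and encode related receptors of the IL-1 family, IL1RL1 for IL-33 and IL18R1 for IL-18. IL1RL1 had 27 fragments (0.549 FPKM) in test group IV, against 56 fragments (1.24 FPKM) in the control group, a log2 ratio of -1.18 (95% interval from -1.90 to -0.49). IL18R1 had 45 fragments (1.09 FPKM) in test group IV and 28 fragments (0.737 FPKM) in the control group, a log2 ratio of 0.56 with an interval that included no change. The intervals of these neighbours did not overlap, although IL18R1 itself could not be told from no change. IL1RAP, the coreceptor of IL1RL1, had 104 fragments in test group IV and 127 in the control group (log2 ratio -0.41, interval from -0.80 to -0.03).

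The receptors of the IL-6 family were at similar levels in the 2 libraries. IL6ST (gp130), their shared signalling chain, had 11.9 FPKM (643 fragments) in test group IV and 12.0 FPKM (592 fragments) in the control group, with an interval from -0.17 to 0.16. IL11RA had 5.84 FPKM in test group IV and 5.74 FPKM in the control group, IL6R had 3.10 FPKM in test group IV and 3.45 FPKM in the control group, and both intervals included no change. LIFR, a partner of gp130 that the symbol rule does not include, stood apart from them with 6.45 FPKM (379 fragments) in test group IV and 11.5 FPKM (622 fragments) in the control group, a log2 ratio of -0.84 (95% interval from -1.03 to -0.65). Its relative OSMR had 11.6 FPKM in test group IV and 10.4 FPKM in the control group (interval from -0.04 to 0.34).

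The type I interferon receptor genes and IL10R2 lie in 1 cluster on chromosome 1, in the order IFNAR2, IL10R2 and IFNAR1. IFNAR1, a chain of the type I interferon receptor, had 6.57 FPKM (228 fragments) in test group IV and 10.1 FPKM (322 fragments) in the control group, a log2 ratio of -0.62 (95% interval from -0.87 to -0.37). Its partner IFNAR2 had 6.94 FPKM in test group IV and 7.48 FPKM in the control group (interval from -0.36 to 0.14). IL10R2, the shared chain of the receptors for IL-10 and its relatives, had 3.21 FPKM in test group IV and 4.05 FPKM in the control group (interval from -0.68 to 0.01). Without rescaling of the libraries, only IFNAR1 of this cluster had an interval that left out no change, and it did not reach 2-fold. Median ratio and TMM scaling each lower the log2 ratios by 0.09, which puts the interval of IL10R2 below 0 as well. IFNLR1, a chain of the interferon lambda receptor on chromosome 23, is no member and was chosen after its values were seen. It had 40 fragments (1.64 FPKM) in test group IV and 18 fragments (0.804 FPKM) in the control group, a log2 ratio of 1.03 (95% interval from 0.19 to 1.92), and it was not called on the log2(FPKM + 0.1) scale.

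Among the receptors of myeloid cells and lymphocytes, CSF3R had an interval above no change and CSF1R did not. CSF1R, the receptor that macrophages need for survival, had 13.1 FPKM (809 fragments) in test group IV and 13.3 FPKM (752 fragments) in the control group, with a narrow interval from -0.16 to 0.13. CSF3R, the receptor for the granulocyte growth factor, was higher, with 149 fragments in test group IV and 91 in the control group (log2 ratio 0.59, interval from 0.20 to 0.98). CSF3R and MRPS15 overlap by 34 bases, and reads from this overlap were not separated here. MRPS15 had more fragments than CSF3R, 1074 in test group IV and 741 in the control group. Its part in the difference of CSF3R was not tested. CXCR4, the receptor for CXCL12, had 38 fragments in test group IV and 36 in the control group. CXCR1 was called lower on 2 fragments in test group IV and 6 in the control group, with an interval from -5.05 to 0.77. CXCR5, the receptor that leads B cells into follicles, had 4 fragments in test group IV and 5 in the control group, and CCR6 had 2 in each library. A further 7 receptors were IL12RB2, IL13RA1, IL13RA2, IL17RA, IL17RD, IL20RA and IL31RA, and the intervals of all 7 included no change. IL13RA2, a decoy for IL-13 in mammals, came closest to leaving it out, with 17 fragments in test group IV and 29 in the control group (interval from -1.85 to 0.02). Median ratio or TMM scaling puts this interval below 0. IL12RB2, a chain of the IL-12 receptor, had 21 fragments in test group IV and 9 in the control group (interval from -0.09 to 2.41), and it was not called because its FPKM values, 0.323 in test group IV and 0.151 in the control group, are near the added 0.1.

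Of the 9 SOCS and JAK genes, SOCS2 was called higher and SOCS3 lower in test group IV. Both lie between 1 and 10 FPKM, where 3.14% of all genes were called higher and 2.82% lower. SOCS3, the feedback inhibitor of gp130 and leptin receptor signalling, had 3.59 FPKM (94 fragments) in test group IV, against 7.70 FPKM (185 fragments) in the control group. Its log2 ratio was -1.10 (95% interval from -1.48 to -0.74). SOCS2, which restrains growth hormone signalling, had 3.32 FPKM (71 fragments) in test group IV, against 1.53 FPKM (30 fragments) in the control group, a log2 ratio of 1.12 (95% interval from 0.48 to 1.79). The intervals of SOCS2 and SOCS3 lay on opposite sides of 0. With either rescaling of the libraries the log2 fold change of SOCS2 was 0.98, just under the 2-fold line. SOCS4 had 72 fragments in test group IV and 96 in the control group (log2 ratio -0.54, with an interval wholly below 0). SOCS1, SOCS5 and SOCS6 had intervals that included no change.

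JAK1, the kinase shared by interferon, gp130 and common gamma chain receptors, was the most abundant member, with 57.6 FPKM (3071 fragments) in test group IV and 66.8 FPKM (3264 fragments) in the control group. Its log2 ratio was -0.21 (95% interval from -0.28 to -0.14). JAK2, the kinase of the growth hormone and erythropoietin receptors, had 5.25 FPKM in test group IV and 6.36 FPKM in the control group (log2 ratio -0.28, interval from -0.49 to -0.07). JAK3, the kinase bound to the common gamma chain, had 60 fragments in test group IV and 44 in the control group, with an interval from -0.26 to 0.92.

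The genes around these members were taken from 3 lists. Of 25 other ligands of the same families, 7 were found outside the members and none was called (all genes 3.85% higher, 5.36% lower). CX3CL1 had 94 fragments in test group IV and 45 in the control group, a log2 ratio of 0.94 (95% interval from 0.41 to 1.48). Its receptor CX3CR1, carried by monocytes and macrophages, was called lower, with 11 fragments in test group IV and 24 in the control group (interval from -2.43 to -0.17). Ligand and receptor of this pair thus had intervals on opposite sides of 0, unlike CCL19 and CCR7. EDA, a TNF family ligand of skin appendage development, had 67 fragments in test group IV and 39 in the control group, and KITLG, the ligand of KIT, had 35 in test group IV and 24 in the control group. Of 29 other receptors, 18 were found and tested, with CX3CR1 the only gene called lower and LEPR the only gene called higher. Both lie between 0.1 and 1 FPKM, where 8.99% of all genes were called higher and 14.3% lower. LEPR, the leptin receptor, had 19 fragments in test group IV and 2 in the control group, a log2 ratio of 3.12 (95% interval from 1.07 to 6.27). Its 2 fragments in the control group (0.0312 FPKM) are under the floor of 3, so that LEPR passed the minimum through test group IV (0.272 FPKM) and a difference is in part built into its passing.

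Of 62 genes of the JAK-STAT and NF-kB pathways, 49 were found, 1 was called lower and none was called higher, and with either rescaling of the libraries 2 were called lower. Most of the list lies above 1 FPKM. Of all genes, 3.14% were called higher and 2.82% lower between 1 and 10 FPKM. At 10 FPKM or more the shares were 0.691% and 1.88%. The called gene was CISH, a SOCS family member that STAT5 induces, with 12.9 FPKM (233 fragments) in test group IV and 29.0 FPKM (480 fragments) in the control group, a log2 ratio of -1.17 (95% interval from -1.40 to -0.94). CISH therefore lay on the side of SOCS3 and not of SOCS2. STAT5B, MAP3K7 and TAB3 were the most abundant of the list, and STAT5B had 61.7 FPKM in test group IV and 57.9 FPKM in the control group. IRF9, a transcription factor of the type I interferon response, had 50 fragments in test group IV and 91 in the control group (log2 ratio -0.99, interval from -1.52 to -0.48). STAT3, which acts below gp130, had 40.5 FPKM in test group IV and 45.7 FPKM in the control group (log2 ratio -0.18, interval from -0.25 to -0.10). IRF9 and STAT3 were neither called nor among the most abundant 3, and other STAT and IRF genes lay on the higher side. STAT2 had 135 fragments in test group IV and 89 in the control group (interval from 0.08 to 0.88). IRF1 had 204 fragments in test group IV and 136 in the control group (interval from 0.14 to 0.78). Over the list, 16 genes had an interval wholly above 0 and 10 wholly below 0, against the 3313 and 1838 of 14094 genes given for the whole table. In the ranges where most of the list lies, these counts were 1321 and 833 of 6429 between 1 and 10 FPKM. At 10 FPKM or more they were 1754 and 799 of 4195.

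**Figure D4:**
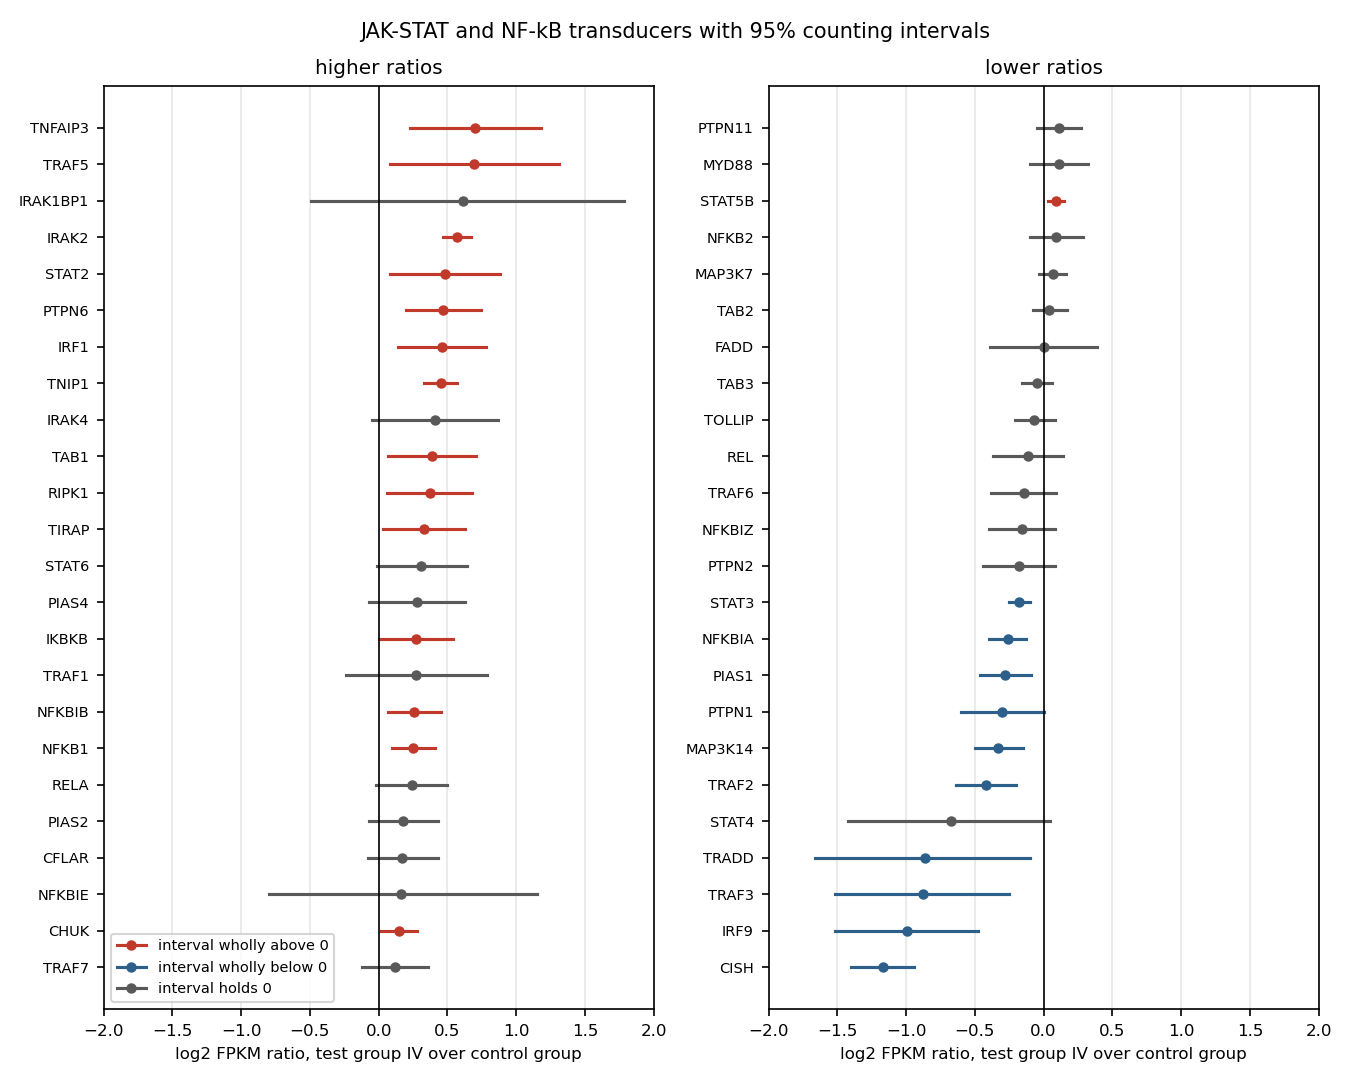
Log2 FPKM ratio of 48 of the 49 JAK-STAT and NF-kB genes, test group IV over the control group, with 95% counting intervals as lines (red, wholly above 0; blue, wholly below 0; grey, holding 0), in order of ratio from the top left to the bottom right. CISH is at the lower end with -1.17.

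Among the marker lists, those of macrophages, B cells, leukocytes in general and melanocytes had at least 5 intervals wholly above 0 and none wholly below. Such counts depend on the level. Between 0.1 and 1 FPKM, 238 of all 3470 genes had an interval wholly above 0 and 206 wholly below. Between 1 and 10 FPKM these were 1321 and 833 of 6429, and at 10 FPKM or more 1754 and 799 of 4195. Of 10 macrophage markers found (of 13 in the list), 7 had an interval wholly above 0 and none wholly below, and their summed level was 287 FPKM in test group IV and 214 FPKM in the control group, of which CD74 made up 207 FPKM in test group IV and 154 FPKM in the control group. Of 6 B cell markers found (of 8), 5 had an interval wholly above 0, with sums of 53.7 FPKM in test group IV and 36.4 FPKM in the control group. JCHAIN made up 48.7 FPKM of this in test group IV and 33.7 FPKM in the control group. Pax5B had 15 fragments in test group IV and 1 in the control group, and POU2AF1 had 13 and 2. Both are under the floor of 3 in the control group and passed the minimum through test group IV. A difference is thus in part built into their passing. The 9 general leukocyte markers summed to 49.8 FPKM in test group IV and 39.9 FPKM in the control group, with 5 intervals wholly above 0 and none wholly below. The T cell markers summed to 14.7 FPKM in test group IV and 12.8 FPKM in the control group, where only LCK of 8 had an interval wholly above 0, and CD3E, a chain of the T cell receptor complex, had 5.22 FPKM in test group IV and 5.60 FPKM in the control group. No found marker of the macrophage, B cell, general leukocyte and T cell lists was at 0 in test group IV. The 3 heterophil markers found (of 10), CYBA, NCF1 and NCF4, summed to 7.78 FPKM in test group IV and 7.63 FPKM in the control group. None of their intervals left out no change. MPO, LYG2, CATHL2, CATHL3, ELANE, S100A9 and MMP9 were not found by symbol, so these sums cover a small part of the list. The 4 thrombocyte markers summed to 20.1 FPKM in test group IV and 17.0 FPKM in the control group, with 1 interval wholly above 0 and 1 wholly below. The 9 endothelial markers summed to 62.7 FPKM in test group IV and 64.4 FPKM in the control group, with 2 intervals wholly below 0 and none above. The 5 erythroid markers found (of 12) summed to 24.5 FPKM in test group IV and 25.1 FPKM in the control group, and all intervals included no change. The 9 fibroblast markers summed to 464 FPKM in test group IV and 413 FPKM in the control group, with 5 intervals wholly above 0 and 2 wholly below. The part of these markers in the differences of CCL4, CCL19, CCR7, IL2RG and CSF3R was not tested. The 5 adipocyte markers summed to 45.3 FPKM in test group IV and 70.9 FPKM in the control group, with 4 intervals wholly below 0, none wholly above, and CIDEC at 0 fragments in test group IV and 5 in the control group. The 9 melanocyte markers summed to 46.3 FPKM in test group IV and 23.4 FPKM in the control group, of which 1 marker made up 32.9 FPKM in test group IV and 21.1 FPKM in the control group. Of these 9, 6 were called higher, 7 had an interval wholly above 0 and none had one wholly below, and their median log2 fold change was 2.17. The 6 called markers lie below 10 FPKM. Of all genes, 8.99% were called higher between 0.1 and 1 FPKM and 3.14% between 1 and 10 FPKM. Among the called melanocyte markers, TRPM1 had 20 fragments in test group IV and 1 in the control group, which is under the floor of 3. It passed the minimum through test group IV, so that a difference is in part built into its passing. The part of the fibroblast, adipocyte and melanocyte markers in the differences of TNFRSF6B, SOCS3 and CXCL14 was not tested either.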

How the data were processed

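RNA was sequenced from breast muscle of 3 pooled birds per group, as 1 paired-end library for test group IV and 1 for the control group. Per the methods of the study, the authors cleaned the reads with Seqtk, mapped them to Galgal5 with TopHat 2.0.9 and obtained whole-number fragment counts per gene with StringTie 1.3.0. Their methods also name TMM normalisation, without saying which deposited values it entered. The deposited FPKM values were calculated by the authors from these counts with a Perl script. The kit was directional, but the strand setting of the counting is not given in the sources used here.

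FPKM was used as deposited. The depth ratio behind it, test group IV over the control group, was 1.09025. The TMM depth ratio computed here from the same counts was 1.16124, so this TMM factor is not part of the deposited FPKM. Members were found by symbol and divided into classes by symbol, and the members and lists were chosen with earlier results of these data known. The rule for named genes took the 5 highest members of each class by mean FPKM, every called member, every member with at least 20 fragments whose interval leaves out no change, members at 0 in 1 library with at least 5 fragments in the other (none), and binding partners. Its parts other than partners gave 32 members. Another 29 are named as partners or to account for the members, a choice made after their values were seen. The values of 1 member and of 1 JAK-STAT and NF-kB gene are not reported here, although both are in the counts. With 1 library per group, no test was run and no P-value is given. Symbols of the lists were also matched through RefSeq synonyms (GRCg7b), whose coordinates were not used, and no sequences are shown. Alternatives were pseudocounts of 0.01 and 1, median ratio and TMM scaling, other FPKM filters, and, chosen after seeing the data, calls that also need a clear interval. Intervals were computed with scipy 1.17.1, tables with pandas 2.3.3 and numpy 2.4.6, figures with matplotlib 3.10.9 (Python 3.11.15), and TMM factors came from edgeR 4.0.16 in R 4.3.3. The intervals, the sign of the ratio and the median ratio scaling were tested on simulated counts that held counting error only. The 2-fold calls and TMM scaling were not tested in this way.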

Additional observations from a re-analysis of the deposited data

How the results depend on the processing

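The calls depended most on the pseudocount. With 1 added to each FPKM, 2 ligands were called higher and 0 lower (median log2 fold change 0.07), 0 receptors higher and 1 lower, 0 SOCS and JAK genes higher and 0 lower, and 0 of the other receptors higher and 0 lower, while the shares of all genes were 0.702% higher and 1.23% lower. CXCL14, CCL4 and TNFRSF6B kept their calls. A gene under 1 FPKM in both libraries cannot be called with 1 added, so the loss of such calls was fixed in advance. With 0.01 added, 2 receptors and 3 of the other receptors were called higher and 1 of the other ligands lower (all genes 5.24% higher, 6.84% lower). Restricted to a mean FPKM of at least 1, 3 ligands were called higher and 0 lower (median 0.99), 0 receptors higher and 1 lower, and 0 of the other receptors higher and 0 lower (all genes 2.17% higher, 2.45% lower). Where a call also needed an interval that leaves out no change, an alternative chosen after seeing the data, 3 ligands were called higher and 0 lower (all genes 2.50% higher, 2.64% lower). Median ratio scaling and TMM scaling each gave 0 SOCS and JAK genes higher and 2 JAK-STAT and NF-kB genes lower (all genes 3.16% higher with either, and 6.05% or 6.06% lower), and moved the sign of IL11RA and IL16, neither of them called. No called member changed sign under any pseudocount or scaling, but this was fixed in advance. The same value added to both libraries cannot reverse their order. The scalings move log2 values by about 0.09, far less than a 2-fold call. Without a filter on FPKM no count of calls moved by over 1.5 times. All counts of intervals are given without rescaling, and either scaling lowers the log2 ratios and their intervals by 0.09. The intervals of IL10R2, IL13RA2 and TNFRSF11B, with upper ends of 0.01, 0.02 and 0.08, then lie below 0. That of STAT2, with a lower end of 0.08, then includes no change. Depth limits the low genes: of 13 members with fewer than 20 fragments in both libraries together, 12 had an interval that included no change. With 1 library per group, no library could be left out. No paired analysis was possible because each group has 1 library.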

Other observations

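The symbol rule misses 3 interleukin genes that are spelled with a hyphen. IL-1RN, the natural antagonist of the IL-1 receptor, had 12 fragments in test group IV and 4 in the control group, a log2 FPKM ratio of 1.46 (95% interval from -0.26 to 3.55). IL-17D had 3 fragments in test group IV and 8 in the control group, a log2 ratio of -1.54 (interval from -4.09 to 0.52). Both intervals included no change. The inflammatory cytokine il-1beta had 0 fragments in test group IV and 2 in the control group, both at or under the floor of 3 fragments. No P-value or test applies to these values either.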
